A study of Mus musculus with 24 samples.

Results

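The Hippo pathway and the cofactors of YAP were followed in mouse retinal organoids (MROs) through 9 genes: Yap1, Wwtr1, Tead1, Tead2, Lats1, Lats2, Amotl2, Ajuba and Vgll4. The members were chosen by name, as the rows of the deposited counts whose Ensembl identifier carries one of these symbols. The rule used no measured value, although earlier results of these data were known when the genes were chosen. All 9 of 9 were found among 126602 counted features, of which 46603 are annotated genes, and all 9 passed the filter on low counts. MROs are aggregates of retinal tissue grown from stem cells. They were made from E14Tg2a, an established wildtype embryonic stem cell line, with cutting of each aggregate during culture, and one RNA library was made from each whole organoid. The 4 groups were 6 control organoids each at day 20 (D20), D22, D25 and D30 of differentiation, 24 in all, from 1 independent experiment. All groups had received the retinoid EC23 earlier in culture, grew in serum, and were given only water as solvent. Age was the stated difference between them, and only the sample titles of D22, D25 and D30 carry the word Ctrl. The labels give no batch, and anything shared by the organoids of one sampling day cannot be told apart from age. Since all organoids come from 1 cell line and 1 experiment, p-values measure the spread between organoids of that experiment.

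In the Hippo pathway, the kinases MST1 and MST2 (genes Stk4 and Stk3), with their adaptor SAV1, activate the kinases LATS1 and LATS2, with their adaptors MOB1A and MOB1B. LATS kinases phosphorylate the coactivators YAP (Yap1) and TAZ (Wwtr1), which keeps them out of the nucleus. Unphosphorylated YAP and TAZ bind TEAD factors on DNA and switch on genes of growth, adhesion and matrix. VGLL4 competes with them for TEAD, angiomotins such as AMOTL2 hold YAP at cell junctions, and AJUBA restrains LATS kinases. In the retina, YAP is known from progenitor cells and from Müller glia, the main glial cell of the tissue, while mature photoreceptors hold little of it. RNA levels do not report the phosphorylation through which the pathway acts.

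Reads assigned to a feature ranged from 13634846 to 19477108 per organoid, and 3 counts corresponded to 0.154 to 0.22 CPM (counts per 1000000 reads). This limit covers counting error only. Levels below are CPM scaled by the trimmed mean of M-values (TMM), given as mean ± SD over 6 organoids. Changes are log2 fold changes with standard errors (SE) from edgeR's quasi-likelihood test, adjusted by Benjamini-Hochberg over 46949 tested features with a threshold of 0.01. Markers of retinal cells were present in every organoid: the summed level of 7 photoreceptor genes lay between 716.9 and 1072 CPM at D20 and between 2410 and 4153 CPM at D30. The summed level of 8 progenitor genes lay between 1181 and 1843 CPM at D20 and between 324.4 and 521.5 CPM at D30. Since whole organoids were sequenced, fewer cells of a type and less RNA per cell cannot be told apart in any of these values. Coordinates are those of GRCm38.

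Promoter sequences are shown for the members whose RNA changed over the series and that hold the letters read by TEAD factors. TEAD proteins bind a motif with the core CATTCC, which on the opposite strand reads as GGAATG. In RefSeq promoters of GRCm38.p6, 300 bases each, from 250 before to 50 after a start site, 14.7% of 32851 promoters and 16.6% of 27025 genes held this core on either strand. Of the 9 members, 8 had a promoter in the table (Tead1 did not), and 6 of these 8 held the core: Yap1, Wwtr1, Lats2, Amotl2, Ajuba and Vgll4. Tead2 and Lats1 did not hold it in this window. In Lats2 the core lay at positions 5 to 10 counted from the start site, and in the other members that held it before the start. Of the genes listed further below, the core was held by 8 of 20 other pathway genes and 4 of 12 YAP targets with a promoter in the table. A match describes the letters only, and binding was not measured. Each sequence reads 5′ to 3′ on the strand of its gene, ends at the base before the start site except for Amotl2, and has the core in capitals. The stretch of Yap1 is chr9:8004597-8004846 on the minus strand, that of Wwtr1 chr3:57575911-57576160 on the minus strand, and that of Ajuba chr14:54577662-54577911 on the minus strand. All 3 lie outside the exons of their own gene in GENCODE vM21. For Amotl2 only 30 bases around the core are shown, chr9:102717727-102717756 on the plus strand, since this window lies in an exon of 2 annotated Amotl2 transcripts.
Yap1: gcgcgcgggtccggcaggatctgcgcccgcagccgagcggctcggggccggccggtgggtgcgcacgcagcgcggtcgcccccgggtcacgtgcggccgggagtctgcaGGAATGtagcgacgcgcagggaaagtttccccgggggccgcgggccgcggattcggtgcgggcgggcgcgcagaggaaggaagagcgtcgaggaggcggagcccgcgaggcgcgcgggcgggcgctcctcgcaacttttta
Wwtr1: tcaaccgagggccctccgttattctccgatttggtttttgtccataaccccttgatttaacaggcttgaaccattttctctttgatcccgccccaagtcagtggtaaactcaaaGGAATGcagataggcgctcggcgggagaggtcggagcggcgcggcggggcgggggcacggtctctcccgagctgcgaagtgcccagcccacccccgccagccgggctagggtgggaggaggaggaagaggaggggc
Ajuba: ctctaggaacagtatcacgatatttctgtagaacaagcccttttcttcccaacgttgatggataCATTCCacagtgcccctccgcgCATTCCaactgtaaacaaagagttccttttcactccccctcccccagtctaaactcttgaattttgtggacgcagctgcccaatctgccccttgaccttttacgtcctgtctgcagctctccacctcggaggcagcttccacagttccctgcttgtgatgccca
Amotl2: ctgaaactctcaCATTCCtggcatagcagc

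The coactivators YAP and TAZ are encoded by Yap1 (ENSMUSG00000053110, chr9:7931999-8004596, minus strand) and Wwtr1 (ENSMUSG00000027803, chr3:57455649-57575910, minus strand). Both were lower at D25 than at D20, and Wwtr1 then rose at D30 to its highest level of the series. Yap1 did not pass the test for that last step.

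Yap1 was at 28.8 ± 4.61 CPM at D20, where the 6 organoids ranged from 21.8 to 35.1 CPM (median 29.3). It was at 20.4 ± 4.24 CPM at D22, ranging from 14.3 to 26.7 CPM (median 20.2). At D25 it was at 16.8 ± 2.86 CPM, with a lowest value of 14.5, a median of 16.3 and a highest value of 22.3 CPM. Most D25 organoids lay near 16 CPM, and replicate 3 stood above the others. At D30 it was at 21.4 ± 4.54 CPM, ranging from 16.0 to 27.9 CPM (median 20.2). Against D20, Yap1 fell by 0.77 on the log2 scale at D25 (SE 0.15, edgeR adjusted p = 0.0003272), and 5 of 6 D25 organoids lay below every D20 organoid. From D25 to D30 the change was 0.35 (SE 0.15, edgeR adjusted p = 0.2115), with 2 of 6 D30 organoids above every D25 organoid. The difference of D30 from D20 was -0.43 (SE 0.15, edgeR adjusted p = 0.02815). It passed 0.01 without the loci assembled from the reads (-0.52, edgeR adjusted p = 0.004134), and also without D30 replicates 1 and 5 (-0.61, edgeR adjusted p = 0.004706).

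Wwtr1 was at 35.4 ± 4.46 CPM at D20, with a range of 30.9 to 42.6 CPM and a median of 33.9 CPM. At D22 it was at 29.4 ± 3.74 CPM (22.9 to 33.5 CPM, median 30.0). At D25 it was at 26.3 ± 2.81 CPM (22.9 to 30.6 CPM, median 26.5). At D30 it was at 47.8 ± 6.17 CPM (39.1 to 57.0 CPM, median 47.7), and the lowest D30 organoid was above the highest of D25 and of D22. The rise from D25 to D30 was 0.87 on the log2 scale (SE 0.11, edgeR adjusted p = 4.553e-06), a factor of 1.83. Against D22 it was 0.71 (SE 0.11, edgeR adjusted p = 1.222e-05), and against D20 it was 0.44 (SE 0.11, edgeR adjusted p = 0.002378), with 5 of 6 D30 organoids above every D20 organoid. The difference from D20 was 0.35 and no longer past 0.01 without D30 replicates 1 and 5 (edgeR adjusted p = 0.02712). The earlier fall from D20 to D25 was 0.43 (-0.43, SE 0.11, edgeR adjusted p = 0.005082), and all 6 D25 organoids lay below all 6 of D20. This fall did not pass 0.01 without the filter on low counts (-0.40, edgeR adjusted p = 0.03846), nor without D20 replicate 1 (-0.37, 0.01901), D20 replicate 5 (-0.40, 0.01327), D25 replicate 1 (-0.41, 0.01253) or D25 replicate 6 (-0.41, 0.013).

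**Figure D1:**
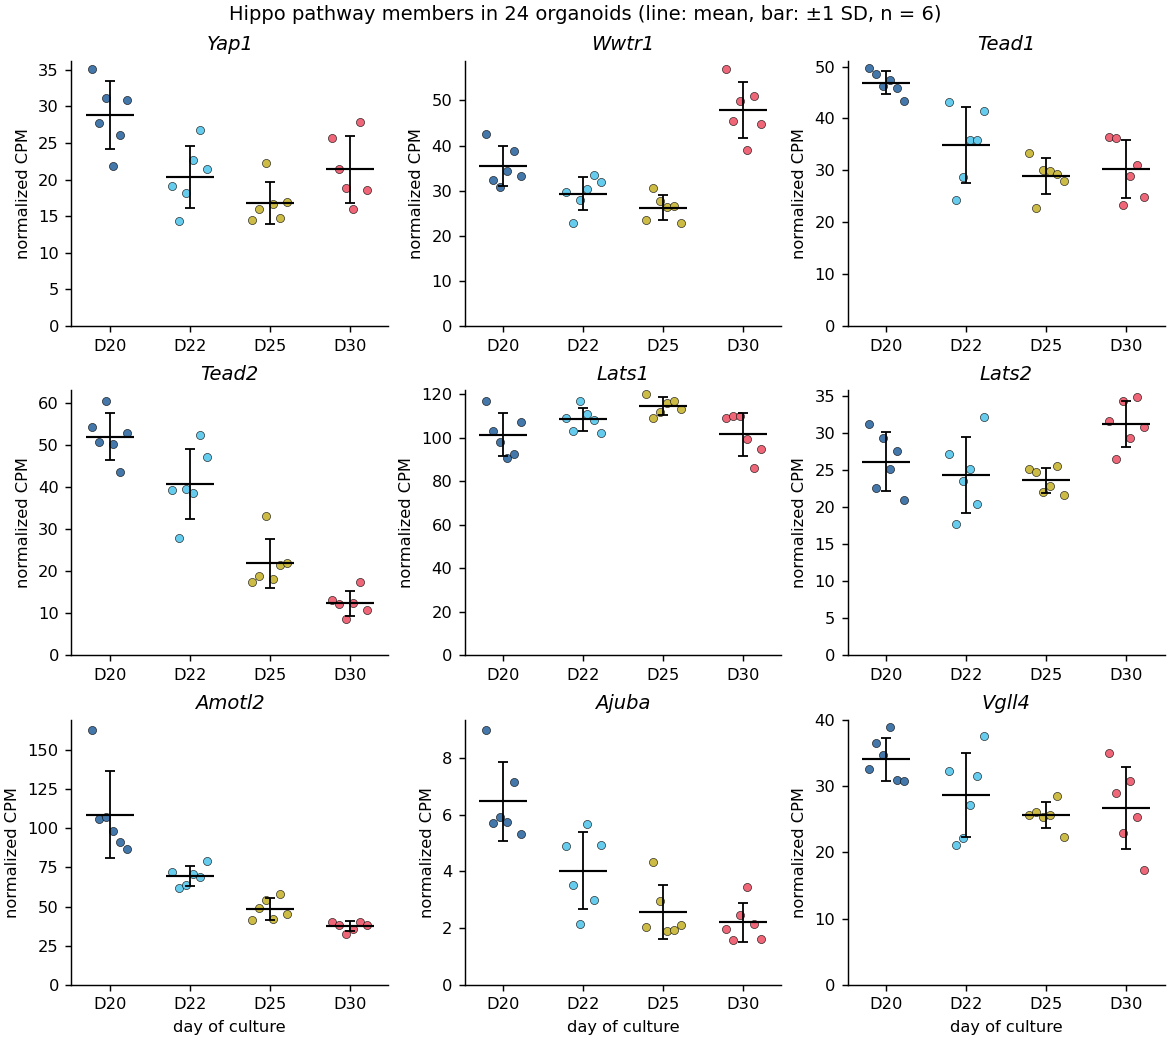
Normalized CPM of the 9 members (y axes, each from 0) in single organoids (points) at D20, D22, D25 and D30 (x axes), with the mean of 6 as a line and ±1 SD as a bar; the order of points within a timepoint carries no meaning. The means of Tead2 and Amotl2 are lower at each step, Wwtr1 is highest at D30 (39.1 to 57.0 CPM), and Lats1 stays between 86.1 and 120 CPM.

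TEAD factors carry YAP and TAZ to DNA. Tead2 had the largest change of the 9 members from D20 to D30, and Tead1 was lower at D25 and D30 than at D20. Tead1 (ENSMUSG00000055320, chr7:112679318-112906807, plus strand) and Tead2 (ENSMUSG00000030796, chr7:45215753-45233644, plus strand) are both on chromosome 7. Tead2, a TEAD known from early neural tissue, was at 52.0 ± 5.52 CPM at D20 (43.5 to 60.4 CPM, median 51.8). It was at 40.8 ± 8.34 CPM at D22 (27.9 to 52.3 CPM, median 39.4) and at 21.9 ± 5.80 CPM at D25 (17.5 to 33.1 CPM, median 20.2). At D30 it was at 12.4 ± 2.92 CPM (8.62 to 17.4 CPM, median 12.3). Every D30 organoid lay below every organoid of the other timepoints, although the highest of D30 (17.4 CPM) nearly met the lowest of D25 (17.5 CPM). The steps were -0.35 at D22 (SE 0.16, edgeR adjusted p = 0.2245), -0.90 from D22 to D25 (SE 0.16, edgeR adjusted p = 0.000343) and -0.81 from D25 to D30 (SE 0.16, edgeR adjusted p = 0.001249). Over the whole interval Tead2 fell by 2.06 on the log2 scale (SE 0.16, edgeR adjusted p = 2.201e-11), to 0.239 times its D20 level.

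Tead1 was at 46.9 ± 2.24 CPM at D20 (43.4 to 49.7 CPM, median 46.8). It was at 34.9 ± 7.30 CPM at D22 (24.2 to 43.2 CPM, median 35.8), at 28.9 ± 3.50 CPM at D25 (22.8 to 33.4 CPM, median 29.5) and at 30.2 ± 5.58 CPM at D30 (23.3 to 36.5 CPM, median 30.0). All 6 organoids of each later timepoint lay below all 6 of D20. The difference at D22 was not past the threshold (-0.43, SE 0.13, edgeR adjusted p = 0.05362). Tead1 had fallen by 0.70 on the log2 scale at D25 (SE 0.13, edgeR adjusted p = 0.0001591) and by 0.63 at D30 (SE 0.13, edgeR adjusted p = 0.0002667). From D25 to D30 it differed by 0.07 (SE 0.13, edgeR adjusted p = 0.8665).

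The other TEAD genes are not members. Tead3 averaged 13.5 CPM at D20, 16.9 CPM at D22 and 17.0 CPM at D25, but 9.88 CPM at D30, and it fell by 0.78 on the log2 scale from D25 to D30 (SE 0.15, edgeR adjusted p = 0.001018). Tead4 had 3, 0, 5 and 15 counts summed over the 6 organoids of D20, D22, D25 and D30, and was below the filter.

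Vgll4 (ENSMUSG00000030315, chr6:114860628-114969994, minus strand), the competitor of YAP for TEAD, did not pass the test in any comparison. It was at 34.1 ± 3.24 CPM at D20 (30.8 to 39.0 CPM, median 33.7), 28.7 ± 6.38 CPM at D22 (21.1 to 37.6 CPM, median 29.4), 25.6 ± 1.97 CPM at D25 (22.4 to 28.6 CPM, median 25.7) and 26.7 ± 6.24 CPM at D30 (17.3 to 35.0 CPM, median 27.2). All 6 D25 organoids lay below all 6 of D20, yet the difference was -0.41 (SE 0.14, edgeR adjusted p = 0.03366). It passed 0.01 with annotated genes only (-0.45, edgeR adjusted p = 0.00691) and with D20 and D25 alone in the fit (-0.40, edgeR adjusted p = 0.005319).

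LATS kinases, which phosphorylate YAP and TAZ, did not pass the test in any of the 6 comparisons. Lats1 (ENSMUSG00000040021, chr10:7681214-7716460, plus strand) was at 101.3 ± 9.95 CPM at D20 (90.6 to 117 CPM, median 100.3), 108.3 ± 5.45 CPM at D22 (102 to 117 CPM, median 108.4), 114.5 ± 3.96 CPM at D25 (109 to 120 CPM, median 114.4) and 101.6 ± 9.79 CPM at D30 (86.1 to 110 CPM, median 104.2). The ranges of all 4 timepoints overlapped. D30 differed from D20 by 0.01 on the log2 scale (SE 0.08, edgeR adjusted p = 0.9582), and the sign of this value changed with the setting. The largest difference was that of D25 from D20, 0.18 (SE 0.08, edgeR adjusted p = 0.114).

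Lats2 (ENSMUSG00000021959, chr14:57689662-57758388, minus strand) is both a LATS kinase and a known target gene of YAP. It was at 26.2 ± 3.92 CPM at D20 (21.0 to 31.2 CPM, median 26.4), 24.3 ± 5.13 CPM at D22 (17.7 to 32.2 CPM, median 24.3) and 23.6 ± 1.67 CPM at D25 (21.7 to 25.5 CPM, median 23.8). At D30 it was at 31.3 ± 3.13 CPM (26.5 to 34.9 CPM, median 31.2), with all 6 organoids above all 6 of D25. The difference of D30 from D25 was 0.41 (SE 0.13, edgeR adjusted p = 0.04806), which is not past the threshold. Against D22 it was 0.36 (SE 0.13, edgeR adjusted p = 0.02774), which passed 0.01 with DESeq2 (0.44, adjusted p = 0.00492) and without D22 replicate 6 (0.46, edgeR adjusted p = 0.005895). In GENCODE vM21, 2955 of the 6971 exon bases of Lats2 are shared with the gene model Gm49361, which is not among the counted features.

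The scaffold AMOTL2 holds YAP at junctions, and its gene is also a known YAP target. Amotl2 (ENSMUSG00000032531, chr9:102716672-102733418, plus strand) fell over the series and had left its D20 range by D22. It was at 108.6 ± 27.6 CPM at D20 (86.6 to 163 CPM, median 102.1), 69.5 ± 6.22 CPM at D22 (61.9 to 79.4 CPM, median 69.8), 48.4 ± 6.94 CPM at D25 (41.2 to 58.3 CPM, median 47.2) and 37.5 ± 3.05 CPM at D30 (32.2 to 40.2 CPM, median 38.2). No organoid of one timepoint overlapped those of the next. The first step was -0.64 on the log2 scale (SE 0.12, edgeR adjusted p = 0.001376), and it was -0.49 without D20 replicate 1, the highest organoid (edgeR adjusted p = 0.00497). The second step was -0.52 (SE 0.12, edgeR adjusted p = 0.004527). It did not pass 0.01 when any 1 of D22 replicates 1, 4 and 6 or D25 replicates 1, 4 and 6 was left out (-0.52 to -0.48, edgeR adjusted p of 0.0101 to 0.01567). The last step was -0.36 (SE 0.12, edgeR adjusted p = 0.07124). From D20 to D30 Amotl2 fell by 1.53 (SE 0.12, edgeR adjusted p = 2.988e-11), to 0.346 times its D20 level.

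Ajuba (ENSMUSG00000022178, chr14:54567472-54577558, minus strand) encodes a LIM domain protein that restrains LATS kinases, and was the lowest of the members. It was at 6.46 ± 1.38 CPM at D20 (5.31 to 8.97 CPM, median 5.81), 4.02 ± 1.36 CPM at D22 (2.13 to 5.66 CPM, median 4.20), 2.55 ± 0.956 CPM at D25 (1.91 to 4.33 CPM, median 2.08) and 2.2 ± 0.701 CPM at D30 (1.57 to 3.46 CPM, median 2.05). These levels rest on a median of 87.5 counts at D20 and 34 at D30. All D25 and D30 organoids lay below all of D20. Ajuba fell by 1.34 on the log2 scale at D25 against D20 (SE 0.26, edgeR adjusted p = 0.0002826) and by 1.55 at D30 (SE 0.27, edgeR adjusted p = 2.387e-05). None of the 3 single steps passed the threshold (edgeR adjusted p of 0.1358, 0.1083 and 0.7794).

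Over the 9 members, 6 passed the joint test of the 4 timepoints: Yap1, Wwtr1, Tead1, Tead2, Amotl2 and Ajuba. Of all tested features, 27.2% passed it, and with annotated genes only in the fit 7627 of 16284 did. Among members with the TEAD core in their promoter window, Yap1, Wwtr1, Amotl2 and Ajuba passed while Lats2 and Vgll4 did not. Of those without it, Tead2 passed and Lats1 did not. For D22 against D20, 1 of 9 members passed (Amotl2, lower), beside 1.90% of all features. For D25 against D22, 2 passed (Tead2 and Amotl2, lower), beside 5.28%. For D30 against D25, 2 passed (Wwtr1 higher, Tead2 lower), beside 3.51%. For D25 against D20, 6 passed and all were lower, beside 15.1% of all features in either direction and 6.61% lower. For D30 against D22, 3 passed (Wwtr1 higher, Tead2 and Amotl2 lower), beside 21.5%. For D30 against D20, 5 passed (Wwtr1 higher, Tead1, Tead2, Amotl2 and Ajuba lower), beside 26.8%. Annotated genes passed more often than the assembled loci, at 25.2% for D25 against D20 and 41.8% for D30 against D20. The 5 of 9 members called for D30 against D20 are thus near the background of genes. For D22 against D20, D25 against D22, D30 against D25 and D30 against D22, annotated genes passed at 3.32%, 10.2%, 7.38% and 35.5%. Without overlap of organoids, 6 of 9 members were lower at D25 than at D20 (6.19% of all features), 4 of 9 were lower at D30 than at D20 (9.34%), and 4 of 9 had left their D25 range at D30, beside 4.29%, with Wwtr1 and Lats2 above it and Tead2 and Amotl2 below. Shares without overlap were taken over all features, not over annotated genes alone. The 6 comparisons share organoids. The median change of the members was -0.70 for D25 against D20 and -0.43 for D30 against D20, while the median over all tested features was -0.01 and -0.04.

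**Figure D2:**
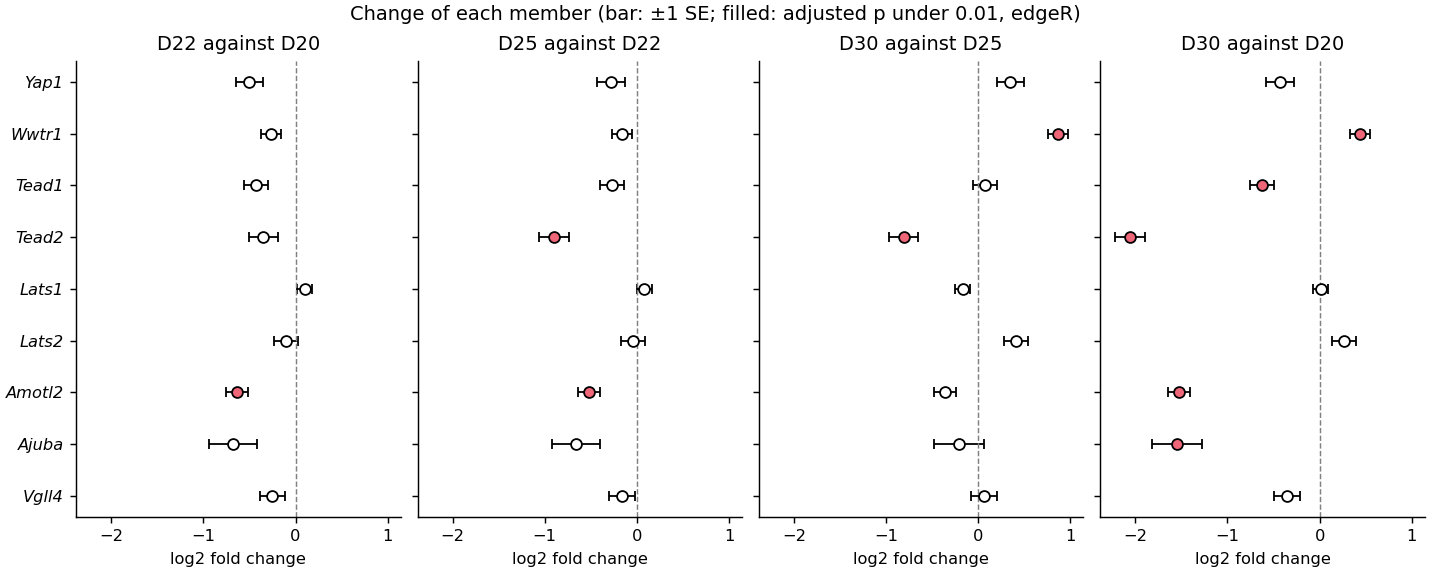
Log2 fold change of each member (x axes, ±1 SE as bars) for the 3 steps between neighbouring timepoints and for D30 against D20, with filled points past an adjusted p of 0.01 in edgeR. At the last step Wwtr1 lies at 0.87 and Tead2 at -0.81, and over the whole interval Tead2 lies at -2.06, Ajuba at -1.55 and Amotl2 at -1.53.

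Between genes, levels were compared as CPM per kilobase of exon. At D20 the order of means was Amotl2 (17.3 CPM per kb), Lats1 (13.9), Tead2 (10.9), Wwtr1 (7.40), Vgll4 (6.32), Lats2 (3.75), Tead1 (3.45), Yap1 (3.11) and Ajuba (1.77). In that order the organoids of Tead2 did not overlap those of Wwtr1, nor those of Vgll4 with those of Lats2, while all other neighbours overlapped. At D22 Lats1 came first (14.9 CPM per kb) and stood apart from Amotl2 (11.05). At D25 Lats1 (15.7 CPM per kb) stood apart from Amotl2 (7.70), and Amotl2 from Wwtr1 (5.497). At D30 the order was Lats1 (13.9 CPM per kb), Wwtr1 (10.01), Amotl2 (5.96), Vgll4 (4.96), Lats2 (4.48), Tead2 (2.59), Yap1 (2.31), Tead1 (2.22) and Ajuba (0.604). There, Wwtr1 stood apart from Amotl2, Lats2 from Tead2 and Tead1 from Ajuba, and the other neighbours overlapped. Amotl2 thus moved from the first to the third place, Tead2 from the third to the sixth, and Wwtr1 from the fourth to the second.

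Ratios of paralogs within an organoid need no scaling between libraries. They were tested with a two-sided exact permutation test of 6 against 6 organoids, whose smallest p is 0.00216, and adjusted over 12 tests with a threshold of 0.05. The log2 ratio of Yap1 to Wwtr1 counts was -0.30 ± 0.26 at D20 (-0.65 to 0.01, median -0.25), -0.54 ± 0.14 at D22 (-0.68 to -0.33, median -0.60), -0.65 ± 0.24 at D25 (-0.93 to -0.31, median -0.68) and -1.18 ± 0.19 at D30 (-1.40 to -0.87, median -1.22). Per length of exon, this is 0.418 Yap1 for each Wwtr1 at D20 and 0.228 at D30. The D30 organoids did not overlap those of D20 (-0.87, exact p = 0.002165, adjusted 0.008658). From D25 to D30 the ratio fell by 0.53 (-0.53, exact p = 0.004329, adjusted 0.01039), with overlapping ranges.

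The log2 ratio of Tead1 to Tead2 counts was -0.15 ± 0.16 at D20 (-0.38 to 0.07, median -0.11), -0.23 ± 0.25 at D22 (-0.54 to 0.14, median -0.19), 0.43 ± 0.37 at D25 (-0.14 to 0.94, median 0.39) and 1.29 ± 0.26 at D30 (0.83 to 1.57, median 1.33). It was higher at D25 than at D22 by 0.65 (exact p = 0.006494, adjusted 0.01299) and at D30 than at D25 by 0.87 (exact p = 0.004329, adjusted 0.01039). D30 and D20 did not overlap (1.44, exact p = 0.002165, adjusted 0.008658). Per length of exon, Tead1 stood at 0.319 of Tead2 at D20 and at 0.864 at D30.

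The log2 ratio of Lats1 to Lats2 counts was 1.96 ± 0.25 at D20 (1.74 to 2.35, median 1.88), 2.18 ± 0.32 at D22 (1.66 to 2.54, median 2.23), 2.28 ± 0.10 at D25 (2.14 to 2.38, median 2.30) and 1.70 ± 0.24 at D30 (1.3 to 2.05, median 1.72). D30 lay below D25 with no overlap (-0.58, exact p = 0.002165, adjusted 0.008658). Against D20 the difference was -0.26 (exact p = 0.1061, adjusted 0.1591). The ratio of the kinases thus fell at the last step, although neither kinase passed the test alone.

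**Figure D3:**
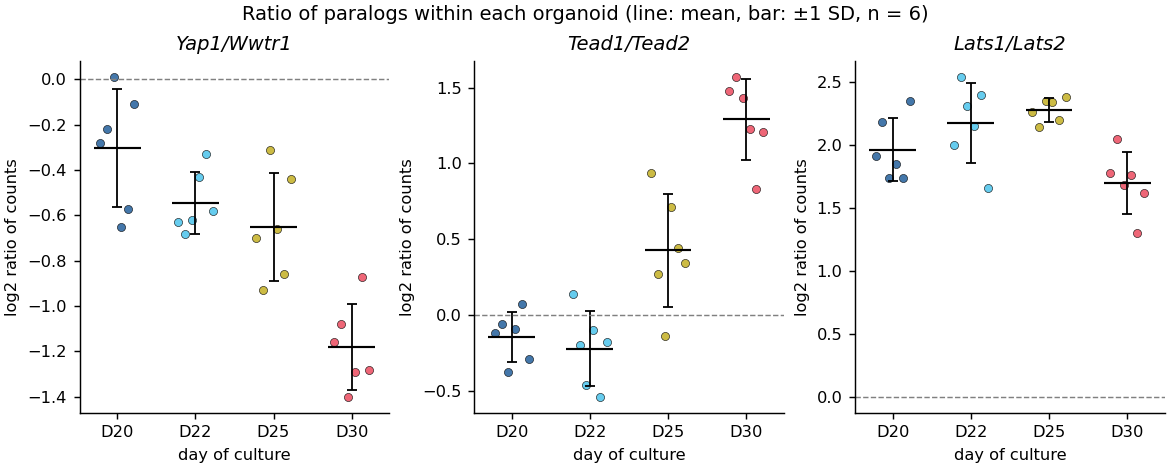
Log2 ratio of counts of Yap1 to Wwtr1, Tead1 to Tead2 and Lats1 to Lats2 (y axes) in single organoids (points) by day (x axes), with the mean of 6 as a line and ±1 SD as a bar. The first ratio descends to between -1.40 and -0.87 at D30, the second climbs to between 0.83 and 1.57, and the third drops from D25 to D30.

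The rest of the pathway was read from a list of 25 other components, of which 22 were tested (Tead4, Vgll1 and Vgll2 were too low). For D30 against D20, 3 of 22 were higher and 4 lower, beside 13.9% and 13.0% of all features, and 41.8% of annotated genes in either direction. The median change of the 22 was -0.07, and that of all features -0.04. The kinase cassette above LATS and its activator Nf2, the gene of Merlin, gave no call: Stk3 (-0.23), Stk4 (0.03), Sav1 (-0.17), Mob1a (-0.32), Mob1b (0.09) and Nf2 (0.29) had edgeR adjusted p of 0.1378, 0.8618, 0.2337, 0.01875, 0.5383 and 0.04059. Mob1a passed with annotated genes only (-0.40, edgeR adjusted p = 0.001284), and also without D20 replicate 5 (-0.36, 0.009812) or D30 replicate 1 (-0.38, 0.004969).

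The 7 calls were Taok3, Taok1, Wwc2, Frmd6, Ptpn14, Map4k4 and Vgll3, of which Taok1 and Vgll3 are named after their values were seen. Vgll3, a TEAD cofactor related to Vgll4, had the largest change of the list. It went from 4.24 to 7.38 CPM at D20 (median 4.66) to 0.338 to 0.951 CPM at D30 (median 0.791), with no overlap. It fell by 2.74 on the log2 scale (SE 0.33, edgeR adjusted p = 7.848e-08), and its first step, to D22, was -1.64 (SE 0.31, edgeR adjusted p = 0.001451). Its D30 level rests on a median of 13.5 counts. Taok1, a kinase of the TAO family, rose by 0.42 (SE 0.09, edgeR adjusted p = 0.0003579), with overlapping ranges. Taok3, a kinase of the same family, which can activate MST kinases, rose by 1.81 on the log2 scale (SE 0.15, edgeR adjusted p = 4.4e-11). It went from 20.2 to 32.7 CPM at D20 (median 25.3) to 80.2 to 103 CPM at D30 (median 86.4), with no overlap. Frmd6, a FERM domain protein upstream of the kinases, fell by 1.12 (SE 0.14, edgeR adjusted p = 1.406e-07), from 15.0 to 28.7 CPM (median 23.6) to 8.68 to 12.6 CPM (median 10.5). Ptpn14, a phosphatase that binds YAP and is also a YAP target, fell by 1.32 (SE 0.29, edgeR adjusted p = 0.0004868), from 8.63 to 21.7 CPM (median 11.5) to 3.71 to 7.83 CPM (median 4.59). Both left their D20 range in all 6 organoids. Wwc2, a KIBRA relative that supports LATS activation, rose by 0.53 (SE 0.14, edgeR adjusted p = 0.003894), and Map4k4, a kinase acting beside MST, fell by 0.47 (-0.47, SE 0.11, edgeR adjusted p = 0.00124). The ranges of both overlapped, and Wwc2 did not pass without the filter on low counts (0.54, edgeR adjusted p = 0.01015) or without D20 replicate 3 (0.50, 0.01086), D20 replicate 5 (0.50, 0.01015) or D30 replicate 4 (0.48, 0.01159).

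A list of 19 genes known as YAP targets, mostly from cultured cells, was read in the same way, and 17 were tested (Ankrd1 and Foxf2 were too low). For D30 against D20, 9 of 17 were higher and 2 lower, beside 13.9% and 13.0% of all features, and 41.8% of annotated genes in either direction. The median change was 0.73, and that of all features -0.04. The 3 targets used most often as readouts of YAP were low throughout. Ccn1, a secreted matrix protein, had a median of 5.84 CPM at D20, lower ones of 2.05 CPM at D22 and 2.23 CPM at D25, and one of 6.36 CPM at D30, and D30 differed from D20 by 0.28 (SE 0.37, edgeR adjusted p = 0.5903). This difference was -0.240 without D30 replicates 1 and 5, the organoids with the most Ccn1 (10.6 and 13 CPM). Ccn2, its relative, had medians of 1.76, 0.850, 1.45 and 3.35 CPM on the same days, and the difference was 1.27 (SE 0.48, edgeR adjusted p = 0.03697). Against D22, both were higher at D30, Ccn1 by 1.70 (SE 0.39, edgeR adjusted p = 0.001121) and Ccn2 by 2.08 (SE 0.50, edgeR adjusted p = 0.001709). Ankrd1 had 7, 0, 4 and 0 counts over the organoids of each day in turn.

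Of the other targets, Myof, a membrane repair protein, rose by 3.18 (SE 0.29, edgeR adjusted p = 4.793e-10), from 0.414 to 4.61 CPM at D20 (median 2.98) to 19.7 to 30.0 CPM at D30 (median 26.1). Nt5e, the surface enzyme CD73 that also marks young rod photoreceptors, rose by 2.59 (SE 0.26, edgeR adjusted p = 2.038e-09), from a median of 29.2 CPM at D20 to 183.3 at D25 and 163.3 at D30. Axl, a receptor tyrosine kinase, rose by 1.70 (SE 0.27, edgeR adjusted p = 6.518e-06), and every D30 organoid (9.50 to 29.1 CPM) lay above every earlier one (2.84 to 7.09 CPM at D20). Ccdc80, a matrix protein, rose by 4.06 (SE 0.69, edgeR adjusted p = 1.985e-05), but its D30 organoids ranged from 3.40 to 74.9 CPM and overlapped those of D20 (0 to 7.02 CPM). Nuak2, a kinase, fell by 3.66 (SE 0.25, edgeR adjusted p = 8.795e-13), from 22.4 to 36.3 CPM at D20 (median 25.3) to 1.24 to 4.10 CPM at D30 (median 1.53), with no overlap. Of the members known as targets, Amotl2 fell and Lats2 was not called.

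**Figure D4:**
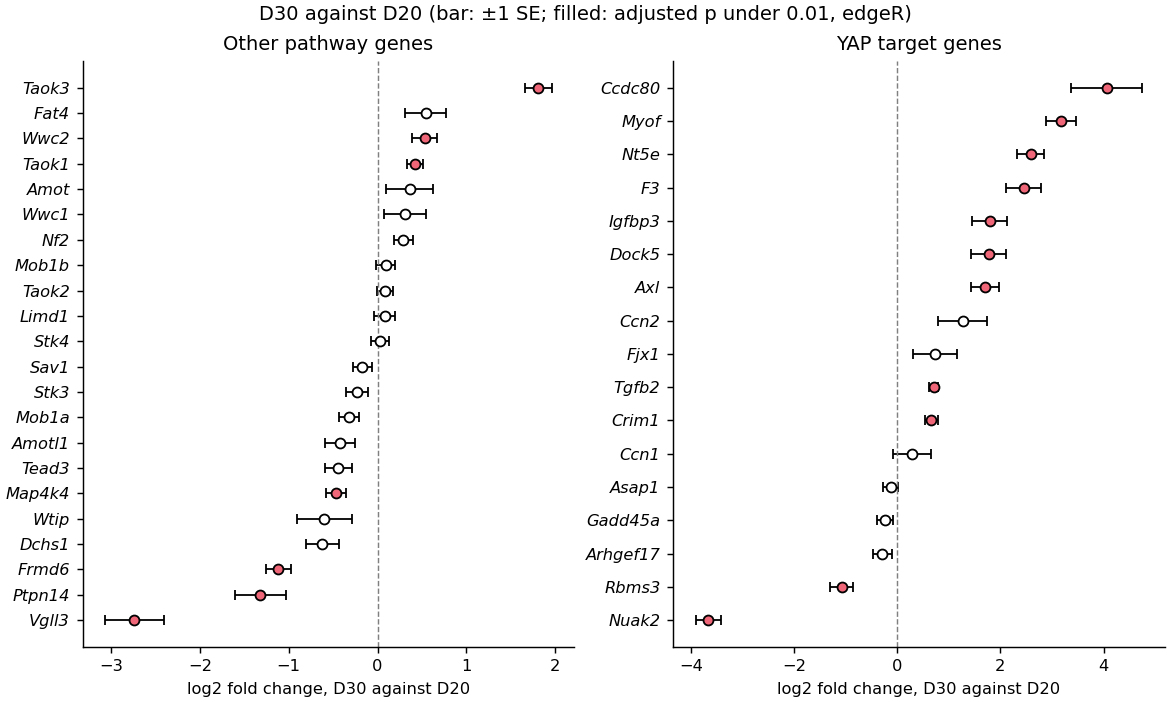
Log2 fold change of D30 against D20 (x axes, ±1 SE as bars) for 22 other pathway genes (left) and 17 YAP target genes (right), with filled points past an adjusted p of 0.01 in edgeR. Among pathway genes Taok3 stands highest at 1.81, and target genes run from Nuak2 at -3.66 to Ccdc80 at 4.06.

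Within a timepoint, 8 of the 9 members varied less from organoid to organoid than the median annotated gene. Their biological coefficient of variation from edgeR lay between 0.1161 (Lats1) and 0.2964 (Ajuba). The median was 0.4023 over tested features and 0.2222 over tested annotated genes. The genes compared were not matched for counts, and the exception, Ajuba, was the member with the fewest counts. Correlations of deviations from the timepoint means were computed for all 36 pairs of members over 24 organoids, as a description. They had a median Pearson's r of 0.31, ranged from -0.21 to 0.76, and were over 0.5 for 3 pairs: Yap1 with Tead2 (0.755), Tead1 with Vgll4 (0.739) and Yap1 with Wwtr1 (0.624). Values of one organoid share its library and scaling.

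The 5 genes whose log2 CPM followed Yap1 most closely over the 24 organoids, of 10830 annotated genes that averaged 100 or more normalized counts, were Raver2 (Pearson's r 0.866), Sned1 (0.849), Kcnk1 (0.847), Utrn (0.841) and Mmp14 (0.838). Around the timepoint means, r was 0.698, 0.720, 0.636, 0.617 and 0.767. All 5 had their highest mean at D20 and their lowest at D25, as Yap1 had. Raver2, an RNA binding protein, went from a mean of 24.5 CPM at D20 to 10.8 at D25 and 15.9 at D30. Mmp14, a membrane-bound matrix protease, went from 65.5 to 37.9 and 43.6 CPM. These 5 were picked for their likeness, so their values are no test.

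Markers of cell types were read beside the members. The 8 progenitor markers fell with Tead2, Amotl2 and Ajuba: all 8 were lower at D30 than at D20, and the median of their sum was 1558, 838.8, 546.1 and 373.9 CPM over the 4 timepoints. Of the 7 photoreceptor markers, 6 were higher at D30, with a median sum of 1013, 1725, 3112 and 3876 CPM. The 10 Müller glia markers, some of which progenitors also hold, had a median sum of 1235, 1012, 1157 and 2855 CPM. Against D20, 6 of them were already higher at D25 and 2 lower, while Wwtr1 fell. At D30, 7 were higher than at D20 and 2 lower. From D25 to D30, the step at which Wwtr1 rose, 6 were higher and none lower. The sum hides the rise before D25, since Dkk3, its largest part at D20, went from a mean of 640.1 CPM to 245.8 CPM at D25. In D30 organoids this sum ranged from 1588 to 4577 CPM, above every earlier organoid. Their part in the results on the members was not tested.

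The sums of markers listed for other cell types also changed by D30, which does not show that these cells were present. The sum of 4 astrocyte markers, led by Gfap, a filament protein that stressed Müller glia also make, had a median of 5.82, 4.76, 96.0 and 654.2 CPM. It was highest in D30 replicates 1 and 5 (2068 and 2168 CPM). As scaled, these organoids had the 2 highest D30 levels of Yap1 (25.6 and 27.9 CPM) and Wwtr1 (57.0 and 50.9 CPM). The same held for Tead2 (13.1 and 17.4 CPM) and Amotl2 (40.2 CPM each). Lats1 was lowest in replicate 5 (86.1 CPM) but not in replicate 1 (109 CPM). The TMM factors of replicates 1 and 5 (0.912 and 0.906) were the lowest at D30, against 1.06 in replicate 6. A low factor raises every scaled level. The next organoids were close for Wwtr1 (49.9 CPM), Tead2 (12.4 CPM) and Amotl2 (38.2 CPM), so these ranks may rest on the scaling. Without D30 replicates 1 and 5, the rise of Wwtr1 from D25 was 0.79 (edgeR adjusted p = 9.93e-05). The numbers of members called were the same, 2 for D30 against D25 and 5 for D30 against D20, although in the latter Yap1 took the place of Wwtr1. Of the astrocyte markers, Pax2 averaged at or under 3 counts per organoid at D22, D25 and D30. Fibroblast markers (7 genes) summed to a median of 14.0 CPM at D20 and 144.7 CPM at D30. The largest part at D30 was Pdgfra (mean 84.6 CPM), before Col3a1 (33.15 CPM) and Col1a2 (25.8 CPM), while Twist1 averaged 0.441 CPM. The 7 pigment epithelium markers summed to 44.8 to 2679 CPM at D30, but the defining genes Rpe65 and Best1 averaged at or under 3 counts per organoid there. In the organoids with the highest sums most of it was Ttr, the gene of the carrier transthyretin, which ranged from 19.6 to 2586 CPM at D30, while Dct of the same list went from a mean of 148.9 CPM at D20 to 29.0 CPM at D30. Of 5 endothelial markers, Cdh5 averaged at or under 3 counts per organoid at each timepoint, and the sum (median 269.1 CPM at D20 and 174.4 CPM at D30) came mostly from Kdr, which retinal cells also express. Whether such cells were present, and how far they contribute to the members, was not tested.

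Single organoids were also read for members and markers together. D20 replicate 1 had the highest level of 7 of the 9 members at D20, all but Tead2 and Vgll4, and at the same time the highest progenitor sum (1843 CPM) and the lowest photoreceptor sum (716.9 CPM). D25 replicate 3 had the highest Yap1 (22.3 CPM) and Tead2 (33.1 CPM) at D25, and the highest progenitor sum (936 CPM, against 258.5 to 657.6 CPM in the others). D20 replicate 6 went the other way, with the second highest progenitor sum at D20 (1665 CPM) and the lowest Tead1 (43.4 CPM), Lats2 (21.0 CPM), Amotl2 (86.6 CPM), Ajuba (5.31 CPM) and Vgll4 (30.8 CPM) of that timepoint. Without D20 replicate 1, Amotl2 fell by 1.38 from D20 to D30 (-1.38, edgeR adjusted p = 9.959e-12), and without D25 replicate 3, Tead2 fell by 0.64 from D25 to D30 (-0.64, edgeR adjusted p = 0.008205).

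**Figure D5:**
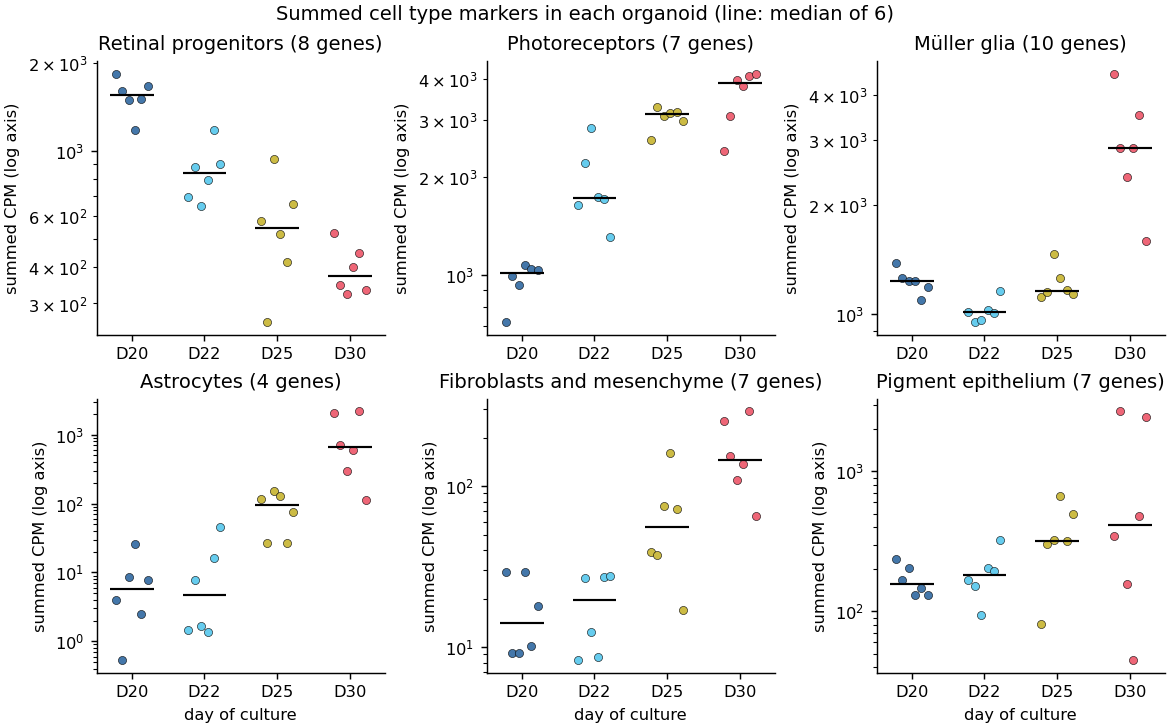
Summed CPM of marker genes of 6 cell types (y axes, logarithmic) in single organoids (points) by day (x axes), with the median of 6 as a line. Progenitor sums descend from a median of 1558 to 373.9 CPM. Müller glia sums stay near their D20 level until D25, although 6 of the 10 markers are higher and 2 lower at D25 than at D20. At D30 Müller glia sums reach 1588 to 4577 CPM, and astrocyte sums run from 113.7 to 2168 CPM.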

How the data were processed

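RNA of 24 single organoids was depleted of ribosomal RNA and made into strand-specific libraries. Per the labels, the authors trimmed and aligned the reads and counted them per feature (cutadapt 1.5, HISAT2, StringTie 1.3.3 and HTSeq 0.6.1 in the submitters' processing notes), on GRCm38 here. The deposited values are raw counts per annotated gene or assembled locus, and the strand setting of the counting is not given in the sources used here. Reads with several alignments were left out by the authors.

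A filter kept the 46949 features with 10 or more normalized counts on average. All organoids entered one fit with edgeR 4.0.16 in R 4.3.3 (TMM, quasi-likelihood test, Benjamini-Hochberg, threshold 0.01), with timepoint as the only term. The functions were tested on simulated data. DESeq2 1.42.0 and other settings served as alternatives. Ratios used counts with 0.5 added and exact permutation tests. Same-numbered organoids did not vary together (r of -0.09 to 0.26), and no 2 libraries of a timepoint agreed within sampling noise.

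The members and lists were chosen with earlier results of these data known. Genes were named by a rule: all members, 11 fixed pathway genes, and from each list up to 5 genes past the threshold for D30 against D20 with the largest changes and a mean of at least 100 normalized counts. The alternative without D30 replicates 1 and 5 was added after seeing the data. Gene models came from GENCODE vM21 and promoters from RefSeq.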

Additional observations from a re-analysis of the deposited data

Results flagged for a closer look

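Of 124 groups of 6 organoids (a gene at a timepoint), 7 held an organoid whose gap to the next, over the whole range, was above Dixon's critical value for groups of this size. Chance gives this in about 1 of 20 groups. Among the members, Yap1 stood at 22.3 CPM in D25 replicate 3, where the next organoid was at 16.9 CPM. In the same organoid Tead2 stood at 33.1 CPM, with the next at 22 CPM. Amotl2 stood at 163 CPM in D20 replicate 1, with the next at 107 CPM. In that organoid Ptpn14, one of the other pathway genes, stood at 21.7 CPM, with the next at 13.5 CPM. Among target genes, Ccn1 stood at 9.29 CPM in D25 replicate 2 (next 2.77 CPM), Ccn2 at 8.64 CPM in D30 replicate 6 (next 3.43 CPM) and Ccdc80 at 7.02 CPM in D20 replicate 6 (next 1.97 CPM). Without these organoids, D30 against D20 gave -1.10 for Ptpn14 (edgeR adjusted p = 0.002864), 4.87 for Ccdc80 (edgeR adjusted p = 4.812e-06) and 0.84 for Ccn2 (edgeR adjusted p = 0.1751).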

How the results depend on the processing

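Across the alternatives, 54 changes of the members were recomputed 1755 times. Of these, 1708 kept direction and side of the threshold, 18 passed it anew, 12 no longer passed and 17 turned in sign. No change that had passed turned in sign. Those that did were near 0: with annotated genes only, Yap1 for D30 against D22 (-0.069), Lats1 for D25 against D22 (-0.010) and Lats1 for D30 against D20 (-0.076). Without D30 replicates 1 and 5 they were Yap1 for D30 against D22 (-0.099), and Tead1 (-0.002) and Vgll4 (-0.012) for D30 against D25. Leaving out 1 organoid gave -0.011 to 0.164 for Yap1 (D30 against D22), -0.025 to 0.052 for Lats1 (D30 against D20), -0.120 to 0.053 for Lats2 (D25 against D22), -0.377 to 0.005 for Ajuba (D30 against D25) and -0.007 to 0.162 for Vgll4 (D30 against D25). Of the other genes, Stk4 for D30 against D20 gave -0.065 with annotated genes only, -0.070 without D30 replicates 1 and 5 and -0.026 to 0.092 leaving out 1 organoid, and Ccn1 gave -0.240 without D30 replicates 1 and 5.

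The number of members called for D25 against D22 was 1 to 2 leaving out 1 organoid, and that for D30 against D22 was 5 with a threshold of 0.05 in place of 3. For D30 against D20, 11 of the other pathway genes were called with annotated genes only, 12 with a threshold of 0.05 and 6 to 10 leaving out 1 organoid, in place of 7. Ajuba (-1.02, edgeR adjusted p = 0.00263) also passed for D30 against D22 and Vgll4 (-0.45, 0.004779) for D30 against D20 with annotated genes only, a scaling that moved the changes for D30 against D22 by -0.14. Tead3 passed for D30 against D20 without D30 replicate 5 (-0.52, edgeR adjusted p = 0.009311). The causes were not tested. Leaving out 1 organoid, the ratio tests that had not passed gave -0.310 to -0.178 for Yap1 to Wwtr1 (D22 against D20), and -0.005 to 0.172 (D25 against D22) and -0.331 to -0.182 (D30 against D20) for Lats1 to Lats2.

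Replicate numbers share no source in the labels, and of 36 matches across timepoints 9 were best with the same number. With a replicate block, the 6 ratio differences that had passed (-0.527 and -0.874 for Yap1 to Wwtr1, 0.653, 0.866 and 1.436 for Tead1 to Tead2, -0.577 for Lats1 to Lats2) had an adjusted p of 0.05357, where sign flips of 6 pairs give no p below 0.0312 before adjustment. The block changed no call of a member or other named gene. Low counts limit the precision for Ajuba, Ccn2 and Vgll3, among others, and Ankrd1 and Tead4 were below the filter.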
